A study of Homo sapiens with 24 samples.

Results

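Aminoacyl-tRNA synthetases join each amino acid to its matching transfer RNA (tRNA), the step that makes amino acids usable by the ribosome. The 36 synthetase genes described here were taken by symbol from 25161 gene symbols on the array, and each had 1 row under its current name. They comprised 19 genes of the cytosolic enzymes, 16 genes of the mitochondrial enzymes and TARS3, which encodes a further threonyl-tRNA synthetase beside TARS1 of the cytosol and TARS2 of the mitochondrion. FARSA and FARSB encode the subunits of a single enzyme, EPRS1 charges both glutamate and proline, and GARS1 and KARS1 give the cytosolic as well as the mitochondrial enzyme of their amino acid.

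RNA was profiled on 24 whole-transcriptome arrays from the diffuse large B-cell lymphoma (DLBCL) line SU-DHL-4 and the Burkitt's lymphoma (BL) line DG-75. Cells of each line were kept for 72 h with 1 µM Entospletinib (Ento), an inhibitor of the kinase SYK, with 0.01 µM AZD5153 (AZD), a bivalent inhibitor of BET proteins, with both agents at the same concentrations (Ento+AZD), or with the solvent DMSO. There were 3 biological replicates per line and exposure. Each lymphoma type was represented by 1 line, so line and lymphoma type cannot be told apart.

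The values were log2 expression levels, and the 24 array medians lay between 4.89 and 5.14. Replicates of a group correlated at 0.981 to 0.992 over all rows, and no arrays held identical values. Both lines carried B-cell RNA. The levels of CD79A, a subunit of the B-cell receptor, were 11.21 to 12.43, and it was above the median of every array, as were CD22, CD79B, MS4A1, PAX5 and BLK. Of 12 markers of other cell types, CD3D, CD3E, LYZ, NCAM1, EPCAM, KRT18 and HBB stayed below the median of every array, CD14 and PECAM1 lay on both sides of it, and COL1A1, COL1A2 and VWF were above it. Their part in the results was not tested. Levels of different genes depend on their probes and are not set against each other here.

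Some cytosolic synthetases sit in the multi-synthetase complex, an assembly that holds several enzymes on scaffold proteins, and the others act outside it. The mitochondrial enzymes are encoded in the nucleus, imported, and serve the few proteins made inside the organelle. Many, but not all, cytosolic synthetase genes are known targets of ATF4, the transcription factor of the amino acid response. Cells make ATF4 when uncharged tRNA or other stress activates a kinase of the initiation factor eIF2. ATF4 pairs with C/EBP proteins and binds a composite DNA element.

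The untreated lines differed widely in these genes, as shown by the comparison of the DMSO arrays of SU-DHL-4 with those of DG-75. Differences with an adjusted p under 0.05 in limma, with Benjamini-Hochberg adjustment over all rows, are called changes here, and those that also exceeded 2-fold are named as such. There were 18 members lower in SU-DHL-4, against 9.84% of all rows, and they comprised 14 cytosolic genes, 3 mitochondrial genes and TARS3. In a fit of only the 6 DMSO arrays FARSA, FARSB, GARS1 and KARS1 no longer passed (adjusted p = 0.0684, 0.0592, 0.0549 and 0.065). Only the mitochondrial gene CARS2 was higher, by 0.48 on the log2 scale (adjusted p = 0.0209), against 7.78% of all rows, and it did not pass with only the 6 DMSO arrays (adjusted p = 0.0834) or in 4 of 6 fits with an array left out. The median log2 difference was -0.58 over the 19 cytosolic genes, of which 18 were below 0, and -0.15 over the 16 mitochondrial genes, beside 0.01 over all rows, of which 48.3% were below 0. All 3 arrays of SU-DHL-4 were under all 3 of DG-75 for 21 members, 16 of them cytosolic, against 17.2% of all rows. In bulk RNA a lower share of a transcript and less RNA per cell cannot be told apart.

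WARS1, the tryptophanyl-tRNA synthetase, which interferon-gamma is known to induce, showed the widest gap of the 36 genes. It was at 7.42, 7.67 and 7.50 in SU-DHL-4 and at 10.11, 9.85 and 10.04 in DG-75. The groups were far apart, and the level was 5.52-fold lower in SU-DHL-4 (log2 difference -2.46, SE 0.15, adjusted p = 1.81e-11). The alanyl-tRNA synthetase gene AARS1 was at 8.25, 7.99 and 8.62 in SU-DHL-4 and at 9.71, 9.83 and 9.29 in DG-75. It was 2.52-fold lower, with no overlap between the lines (log2 difference -1.33, SE 0.19, adjusted p = 9.56e-06). IARS1, for isoleucine, was at 8.57, 8.79 and 8.66 against 9.92, 9.58 and 9.69, and CARS1, for cysteine, was at 6.38, 6.35 and 6.72 against 7.48, 7.60 and 7.39. Both genes were separate between the lines, with log2 differences of -1.05 (SE 0.18, adjusted p = 0.000149) and -1.01 (SE 0.15, adjusted p = 3.04e-05).

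TARS3 was at 3.79, 3.38 and 3.36 in untreated SU-DHL-4 and at 5.48, 5.09 and 5.65 in untreated DG-75. The SU-DHL-4 arrays were all below their array medians and below every DG-75 array, with a log2 difference of -1.90 (SE 0.33, adjusted p = 0.000135). No detection value was used here, so it was not tested whether the TARS3 probes were above background in untreated SU-DHL-4, and the size of any difference from these arrays is uncertain. WARS1, AARS1, IARS1, CARS1 and TARS3 were the 5 members lower by more than 2-fold, against 4.11% of all rows, and no member was higher by that margin, against 3.10%. YARS1 (-0.98), NARS1 (-0.95), LARS1 (-0.94) and TARS1 (-0.90) fell just short of the fold threshold at adjusted p-values of 2.57e-05, 0.00249, 5.02e-05 and 0.000132. The 5 calls became 3 after quantile normalization, where IARS1 and CARS1 lay at -0.99 and -0.94. CARS1 also lost its call without SU-DHL-4 DMSO replicate 1 or 2 or DG-75 DMSO replicate 2, IARS1 lost it without DG-75 DMSO replicate 1, and 9 members were called without SU-DHL-4 DMSO replicate 3.

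**Figure D1:**
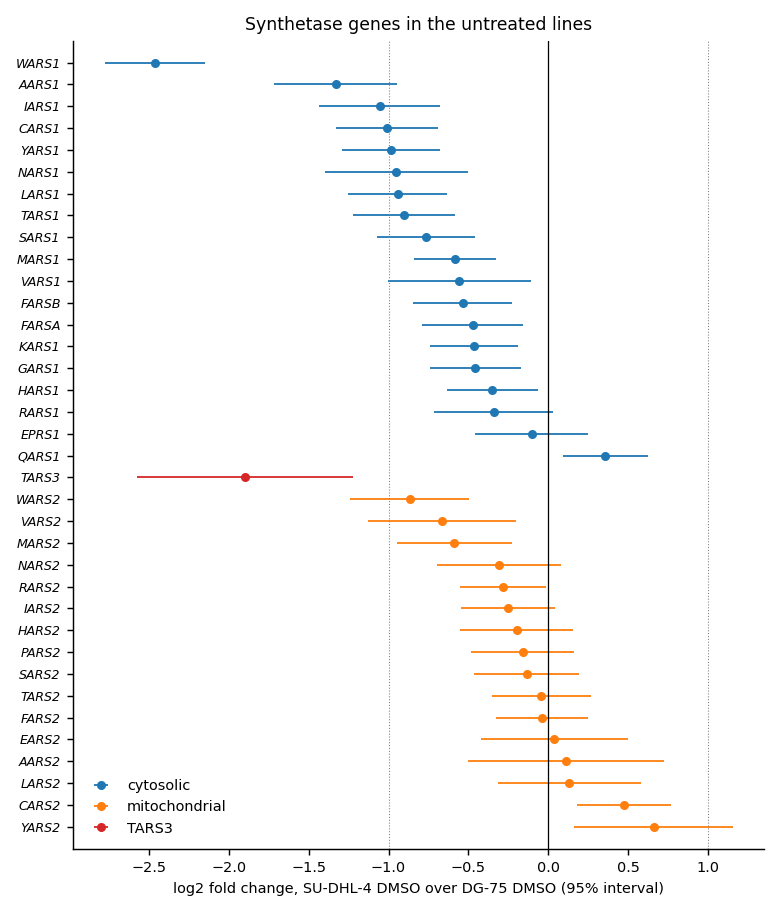
Log2 difference of each of the 36 synthetase genes between untreated SU-DHL-4 and untreated DG-75 (3 arrays each), with points for estimates, bars for 95% intervals and dotted lines at a difference of 1 in either direction. Cytosolic genes lie mostly left of 0, with WARS1 at -2.46 and QARS1 alone to the right, whereas the mitochondrial genes lie on both sides, from -0.87 for WARS2 to 0.66 for YARS2.

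Among the mitochondrial genes WARS2 (-0.87, adjusted p = 0.00111), VARS2 (-0.66, adjusted p = 0.0413) and MARS2 (-0.59, adjusted p = 0.0195) were lower in SU-DHL-4. With an array left out VARS2 passed in 1 of 6 fits and MARS2 in 2 of 6, and WARS2 passed in all 6. For 13 amino acids both a cytosolic and a mitochondrial gene were measured. In 11 of these 13 pairs the cytosolic gene had the more negative difference between the lines, and the median gap between partners was -0.80 on the log2 scale. The widest gap within a pair was that for tyrosine, -1.64, with YARS1 at -0.98 and YARS2 at 0.66, which did not pass the adjusted threshold. The pair for tryptophan followed at -1.60, with WARS1 at -2.46 and WARS2 at -0.87. QARS1, for glutamine, was the only cytosolic gene with a positive difference, 0.36 (adjusted p = 0.0587).

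The 7 cytosolic members of the multi-synthetase complex (EPRS1, IARS1, KARS1, LARS1, MARS1, QARS1 and RARS1) had a median difference between the untreated lines of -0.46, and the 12 other cytosolic genes had -0.83. All 12 of the latter were below 0, and HARS1 (-0.35) and VARS1 (-0.56) among them did not pass the adjusted threshold.

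Promoter windows of 300 bases, from 250 before to 50 after the RefSeq transcription start, were searched for the core of the C/EBP-ATF response element, TGATGNAA or TTNCATCA on either strand. Of the 36 genes, 30 had a window, and LARS1, TARS3, VARS1, YARS1, AARS2 and VARS2 had none. Some genes had more than 1 window. The element stood in a window of 7 of 16 cytosolic genes and of 1 of 14 mitochondrial genes, against 4.46% of all 27305 gene symbols with a window and 3.62% of all 35116 windows. Stretches around the element are shown because its share differed between the classes, a feature read without any expression value. Sequences are from RefSeq on GRCh38.p14, written 5′ to 3′ on the strand of the gene, with the element in capitals.
AARS1, chr16:70289666-70289713, minus strand: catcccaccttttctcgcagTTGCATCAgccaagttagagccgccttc
CARS1, chr11:3057410-3057433, minus strand: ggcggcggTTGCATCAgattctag
GARS1, chr7:30594825-30594872, plus strand: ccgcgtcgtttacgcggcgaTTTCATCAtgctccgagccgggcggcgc
IARS1, chr9:92293698-92293730, minus strand: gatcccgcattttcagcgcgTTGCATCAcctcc
MARS1, chr12:57488056-57488079, plus strand: ggttccggTTGCATCAgcgaggga
TARS1, chr5:33440959-33440982, plus strand: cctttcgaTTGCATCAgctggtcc
YARS2, chr12:32756067-32756114, minus strand: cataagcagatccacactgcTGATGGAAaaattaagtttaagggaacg

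The element began 187 bases before the start in AARS1, 33 before it in GARS1, 13 in IARS1, 4 in MARS1 and 2 in CARS1, and 2 after it in TARS1. CARS1, IARS1, MARS1, TARS1 and AARS1 shared the same letters, TTGCATCA. NARS1 also held the element. YARS2, the only mitochondrial gene with it, had it 197 bases upstream in the other orientation. The palindromic E-box CACGTG, which MYC proteins can bind, stood in a window of 1 of 16 cytosolic genes (IARS1) and of 3 of 14 mitochondrial genes (CARS2, EARS2 and MARS2), against 8.77% of all gene symbols and 7.26% of all windows. A match of letters does not show that a protein was bound.

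The 7 cytosolic genes with the element had a median difference between the untreated lines of -0.95, and all 7 were below 0. The 9 cytosolic genes with a window but without the element had a median of -0.46, and WARS1, at -2.46, was among them.

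TARS3 was higher over both lines after BET inhibition. In SU-DHL-4 the DMSO arrays were at 3.79, 3.38 and 3.36, Ento at 3.84, 4.51 and 3.76, AZD at 4.36, 5.29 and 4.13, and Ento+AZD at 5.33, 5.81 and 5.39. All 3 arrays with both agents exceeded every other SU-DHL-4 array, and the AZD arrays did not overlap with DMSO. The level with both agents reached the range of untreated DG-75, whose arrays lay at 5.48, 5.09 and 5.65. In DG-75 Ento gave 5.75, 5.75 and 4.67, AZD 5.99, 6.36 and 5.73, and Ento+AZD 6.86, 5.63 and 6.22. There AZD lay above DMSO on all arrays, whereas Ento+AZD overlapped with DMSO through its lowest array, which was also below every AZD array.

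Relative to DMSO, TARS3 in SU-DHL-4 rose by 2.0 on the log2 scale with Ento+AZD (SE 0.22, adjusted p = 0.004), a size that rests on DMSO levels not shown to be above background. It was the only member called beyond 2-fold in that comparison, against 0.102% of all rows called higher. The differences with AZD (1.09, adjusted p = 0.0895) and Ento (0.53, adjusted p = 0.546) did not pass the adjusted threshold. In DG-75 the values were -0.02 with Ento, 0.62 with AZD and 0.83 with Ento+AZD, with adjusted p-values of 1, 0.435 and 0.223. Over both lines TARS3 rose with AZD by 0.85 (adjusted p = 0.0381, 0.0581 without the replicate term, under 0.05 in 2 of 12 fits with an array left out) and with Ento+AZD by 1.41 (SE 0.23, adjusted p = 0.000467), where 0.043% of all rows were called higher. All comparisons with DMSO within a line share the same 3 DMSO arrays.

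Against the single agents in SU-DHL-4, TARS3 with Ento+AZD differed from Ento by 1.48 (adjusted p = 0.0451), against 0.0117% of all rows called higher. This call was lost without the replicate term (adjusted p = 0.154), after quantile normalization, after subtraction of array medians, and when any of the 6 arrays was left out (0.0571 to 0.304). The difference from AZD was 0.92 (adjusted p = 0.384). Beyond the added single-agent changes, Ento+AZD left a difference of 0.39 for SU-DHL-4 (95% interval -0.29 to 1.07, adjusted p = 0.961) and of 0.23 for DG-75 (95% interval -0.76 to 1.22, adjusted p = 1). The change with Ento+AZD in SU-DHL-4 exceeded that of DG-75 by 1.17 (SE 0.42), with an adjusted p of 0.569 in limma.

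The other genes for threonine did not share this course. TARS1 had log2 differences with Ento+AZD of -0.20 (SU-DHL-4) and -0.41 (DG-75) (adjusted p = 0.68 and 0.131), and TARS2 had -0.25 and -0.35 (adjusted p = 0.544 and 0.173). Over both lines TARS2 fell by 0.30 (adjusted p = 0.0456), a change that was lost under either rescaling, without the replicate term and in 10 of 12 fits with an array left out. TARS1 was at -0.31 (adjusted p = 0.0866).

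**Figure D2:**
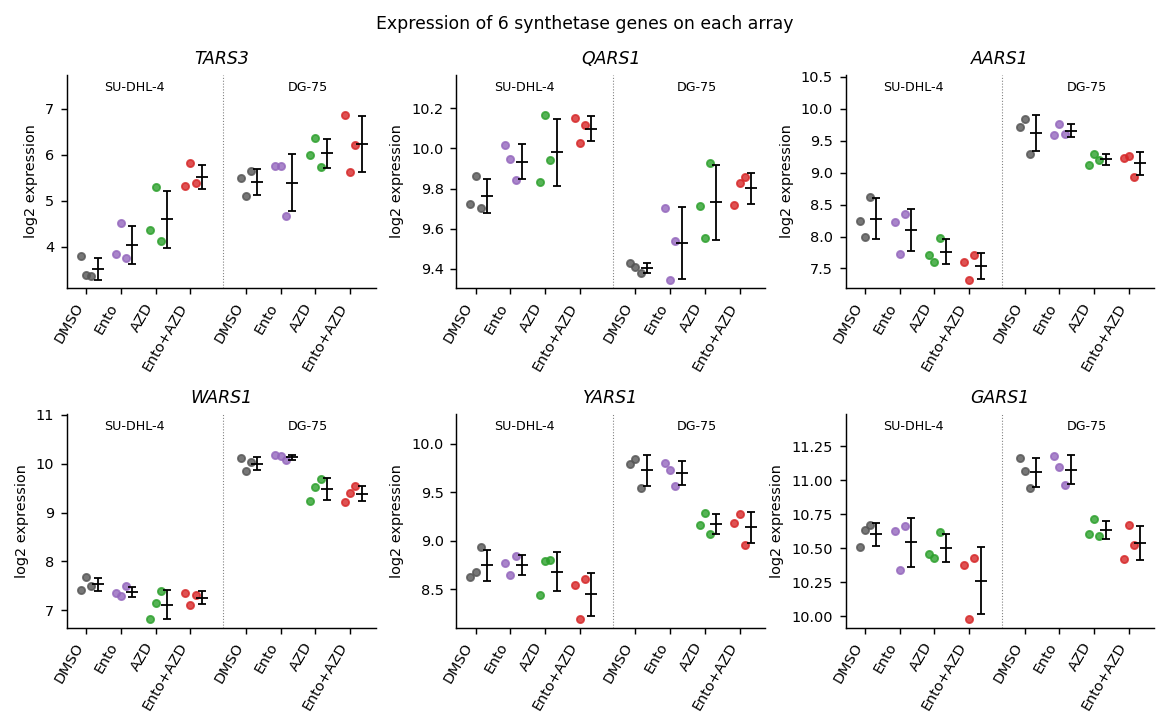
Log2 expression of TARS3, QARS1, AARS1, WARS1, YARS1 and GARS1 on each of the 24 arrays, by line and exposure, with dots for arrays and black marks for the mean and SD of 3. With Ento+AZD all QARS1 points lie above and all AARS1 points below the DMSO points of the same line, TARS3 points do so upward in SU-DHL-4, and WARS1, YARS1 and GARS1 points lie below those of DMSO in DG-75, each panel on its own axis.

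AARS1 was the cytosolic gene with the clearest lower level after BET inhibition. In SU-DHL-4 it was at 8.25, 7.99 and 8.62 with DMSO, at 7.71, 7.60 and 7.98 with AZD, and at 7.59, 7.32 and 7.72 with Ento+AZD. In DG-75 it was at 9.71, 9.83 and 9.29 with DMSO, at 9.12, 9.30 and 9.20 with AZD, and at 9.23, 9.26 and 8.94 with Ento+AZD. The Ento+AZD arrays were below all DMSO arrays of the same line, whereas the AZD arrays of DG-75 overlapped with the lowest DMSO array. AARS1 fell in SU-DHL-4 with Ento+AZD by 0.74 (SE 0.14, adjusted p = 0.018), against 2.06% of all rows lower, but not without the replicate term (adjusted p = 0.154) nor in 5 of 6 fits with an array left out (up to 0.103). Over both lines it fell by 0.46 with AZD (adjusted p = 0.00588) and by 0.60 with Ento+AZD (adjusted p = 0.000186), a 1.52-fold decrease that passed under all alternatives and with any array left out.

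Over both lines Ento+AZD changed 9 members, of which 7 were lower, against 7.03% of all rows, and 2 were higher, against 1.46%. The lower ones were 6 cytosolic genes and the mitochondrial TARS2, and the higher ones TARS3 and QARS1. Next to AARS1, the glycyl-tRNA synthetase gene GARS1 fell by 0.43 (adjusted p = 0.00594) and the tyrosyl-tRNA synthetase gene YARS1 by 0.44 (adjusted p = 0.00887), and both passed under all alternatives. WARS1 (-0.44, adjusted p = 0.0234), CARS1 (-0.38, adjusted p = 0.0293) and EPRS1 (-0.44, adjusted p = 0.0298) passed as deposited but not after quantile normalization or subtraction of array medians (adjusted p up to 0.0799, 0.15 and 0.106), and with an array left out they passed in 7, 5 and 6 of 12 fits. Rows at or above the median row mean, to which 35 members belonged, were changed more often than all rows, 12.3% lower and 2.54% higher.

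QARS1 moved against the other cytosolic genes. In SU-DHL-4 it was at 9.72, 9.86 and 9.71 with DMSO and at 10.15, 10.03 and 10.12 with Ento+AZD, and in DG-75 at 9.43, 9.41 and 9.38 with DMSO and at 9.72, 9.83 and 9.86 with Ento+AZD. The groups did not overlap in either line. It rose over both lines by 0.37 (SE 0.09, adjusted p = 0.0102), a 1.29-fold change, and passed under all alternatives and with any array left out. With AZD the difference was 0.27 (adjusted p = 0.0804).

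AZD as a single agent changed 4 members over both lines. AARS1, CARS1 (-0.42, adjusted p = 0.0276) and WARS1 (-0.46, adjusted p = 0.0297) were lower, against 4.29% of all rows, and TARS3 was higher, against 0.371%. CARS1 and WARS1 did not pass after either rescaling (adjusted p up to 0.176 and 0.11), and each passed in 7 of 12 fits with an array left out. None of the 4 exceeded 2-fold, against 0.254% of all rows.

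In DG-75 most cytosolic genes had small negative differences with BET inhibition, of which only that of YARS1 with Ento+AZD passed the adjusted threshold. The median log2 difference over the 19 cytosolic genes was -0.40 with AZD and -0.41 with Ento+AZD, with 18 and 17 genes below 0, against 60.5% and 61.4% of all rows. The 16 mitochondrial genes had medians of -0.15 and -0.08, and all rows had -0.06 and -0.07. After quantile normalization and after subtraction of array medians the cytosolic medians stayed negative, at -0.25 and -0.34 with AZD and -0.28 and -0.33 with Ento+AZD, whereas the mitochondrial median with Ento+AZD turned to 0.03 and 0.01.

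The cytosolic median lay below the mitochondrial median in every replicate of DG-75, where each replicate is a difference between same-numbered arrays. In DG-75 same-numbered arrays were hardly correlated in their deviations from group means (median 0.04). The pairing by number, and with it the SD below, is therefore a convention there. The gap was -0.12, -0.33 and -0.05 with AZD and -0.24, -0.31 and -0.27 with Ento+AZD in replicates 1 to 3, with SDs of 0.15 and 0.04. From the fitted differences it was -0.25 and -0.34, and with means in place of medians it was -0.09 and -0.19. In SU-DHL-4 the gap with Ento+AZD was -0.05, -0.20 and 0.03 (SD 0.12). The gaps exceeded their replicate SD in every replicate only with Ento+AZD in DG-75, and not with AZD in DG-75 or with Ento+AZD in SU-DHL-4.

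Single genes in DG-75 mostly missed the adjusted threshold. With AZD 0 members passed in limma, against 0.293% of all rows, and 15 were lower at an unadjusted p under 0.05, namely 11 cytosolic and 4 mitochondrial genes, against 11.3% of all rows and 16.8% of the rows at or above the median row mean. With Ento+AZD 17 were lower by that measure, namely 12 cytosolic and 5 mitochondrial genes, against 12.1% and 17.2%. The arrays with AZD lay under all DMSO arrays for 18 members, against 14.6% of all rows, and those with Ento+AZD for 17, against 14%. YARS1 was at 9.79, 9.85 and 9.54 with DMSO, at 9.16, 9.28 and 9.07 with AZD, and at 9.18, 9.27 and 8.96 with Ento+AZD. Both exposures lay below all DMSO arrays. YARS1 fell by 0.59 with Ento+AZD (SE 0.12, adjusted p = 0.0324), the only member changed, against 1.87% of all rows lower, and the change was lost under either rescaling (up to 0.0696) and with any array left out (0.0763 to 0.199).

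WARS1 in DG-75 was at 10.11, 9.85 and 10.04 with DMSO, at 10.17, 10.14 and 10.07 with Ento, at 9.24, 9.53 and 9.68 with AZD, and at 9.22, 9.40 and 9.53 with Ento+AZD. The arrays with AZD, alone or combined, were below all arrays without it. GARS1 showed the same separation, with 11.16, 11.07 and 10.95 for DMSO, 11.18, 11.09 and 10.96 for Ento, 10.60, 10.71 and 10.59 for AZD, and 10.42, 10.67 and 10.52 for Ento+AZD. Against DMSO the differences with Ento+AZD were -0.61 for WARS1 (adjusted p = 0.057), -0.52 for GARS1 (adjusted p = 0.0612) and -0.52 for LARS1 (adjusted p = 0.0662). Against Ento, WARS1 fell by 0.74 (adjusted p = 0.0349), LARS1 by 0.61 (adjusted p = 0.046) and YARS1 by 0.56 (adjusted p = 0.0444), against 1.44% of all rows lower, and each was lost under either rescaling, YARS1 also without the replicate term, and with an array left out WARS1 and LARS1 passed in 1 of 6 fits and YARS1 in 0. Against AZD, 0 members passed in limma and 0 had an unadjusted p under 0.05, against 4.03% of all rows, with AARS2 at 0.50 (95% interval -0.08 to 1.08) as the member of smallest p.

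**Figure D3:**
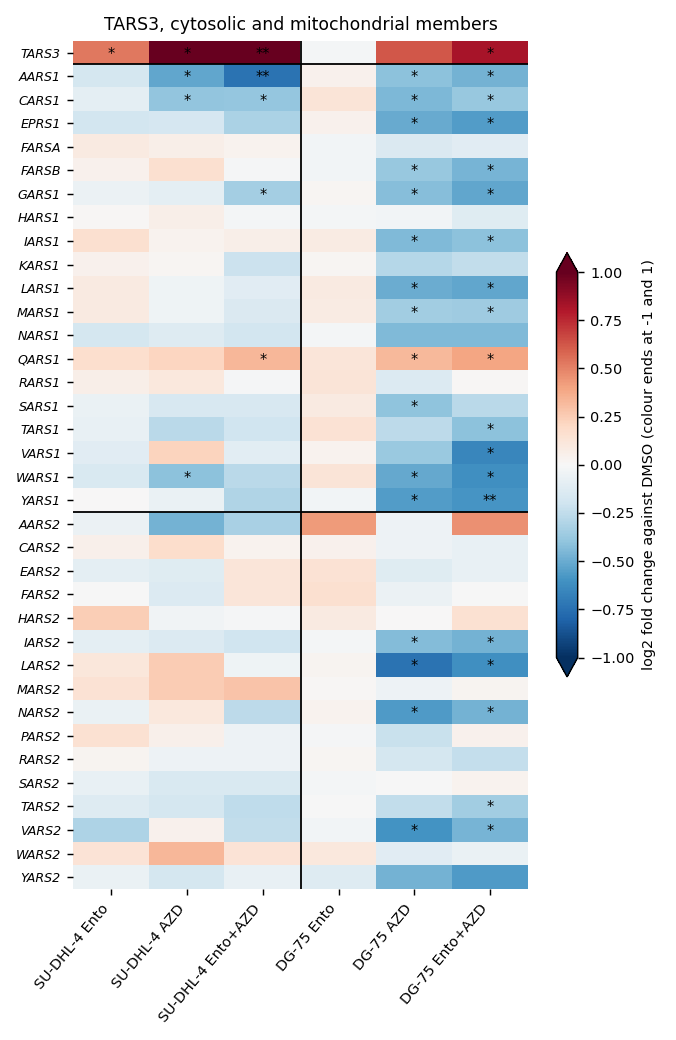
Log2 difference from DMSO of each member (rows: TARS3, then cytosolic, then mitochondrial genes) for each exposure (columns, SU-DHL-4 left and DG-75 right of the line), with blue for lower, red for higher and colours ending at -1 and 1. A single asterisk marks an unadjusted p under 0.05 and a pair of asterisks an adjusted p under 0.05, which holds for TARS3 and AARS1 with Ento+AZD in SU-DHL-4 and YARS1 with Ento+AZD in DG-75.

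With AZD in DG-75, 15 of 16 mitochondrial genes were below 0 as deposited, against 60.5% of all rows, but 10 of 16 after either rescaling, and none passed the adjusted threshold. In DG-75 LARS2, for leucine, was at 6.27, 6.05 and 6.19 with DMSO and at 5.01, 5.55 and 5.73 with AZD, which did not overlap, and differed by -0.74 (adjusted p = 0.154). VARS2 differed by -0.60 (adjusted p = 0.131), NARS2 by -0.57 (adjusted p = 0.174) and IARS2 by -0.44 (adjusted p = 0.161). SARS2, HARS2, CARS2, AARS2 and MARS2 lay between -0.05 and 0.01. With Ento+AZD, AARS2 was at 0.45 (adjusted p = 0.451) beside AARS1 at -0.47 (adjusted p = 0.112), the widest gap within a pair. Of the 13 pairs for the same amino acid, 9 had the more negative difference in the cytosolic gene with Ento+AZD in DG-75, with a median gap of -0.19, and 8 of 13 in SU-DHL-4, with a median gap of -0.01. With AZD in DG-75 it was also 9 of 13, but with a median gap of only -0.03, beside the gap of -0.25 between the class medians.

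In SU-DHL-4 the classes stayed near the rest of the array. The cytosolic medians with Ento, AZD and Ento+AZD were 0.01, -0.04 and -0.16, the mitochondrial medians -0.03, -0.04 and -0.05, and the medians of all rows -0.06, -0.08 and -0.08. Subtraction of array medians raised every SU-DHL-4 difference from DMSO by 0.12 to 0.13, and under it the cytosolic medians were 0.12, 0.07 and -0.03 and the mitochondrial ones 0.09, 0.08 and 0.08, beside 0.05, 0.04 and 0.05 over all rows. The direction held under both rescalings for the cytosolic medians with Ento and with Ento+AZD, and turned for the other 4 medians. These 4 were smaller in size than the shift, so their turn on subtraction of array medians follows from the scaling. It says nothing about the classes. With AZD limma called 0 members beyond 2-fold, against 0.180% of all rows, and 4 had an unadjusted p under 0.05, against 11.5% of all rows, namely TARS3, AARS1 (-0.52, adjusted p = 0.18), WARS1 (-0.41, adjusted p = 0.351) and CARS1 (-0.39, adjusted p = 0.362). With Ento+AZD, CARS1 (-0.38, adjusted p = 0.288), GARS1 (-0.34, adjusted p = 0.315) and QARS1 (0.34, adjusted p = 0.308) followed TARS3 and AARS1, and these 5 with an unadjusted p under 0.05 compare with 14% of all rows.

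**Figure D4:**
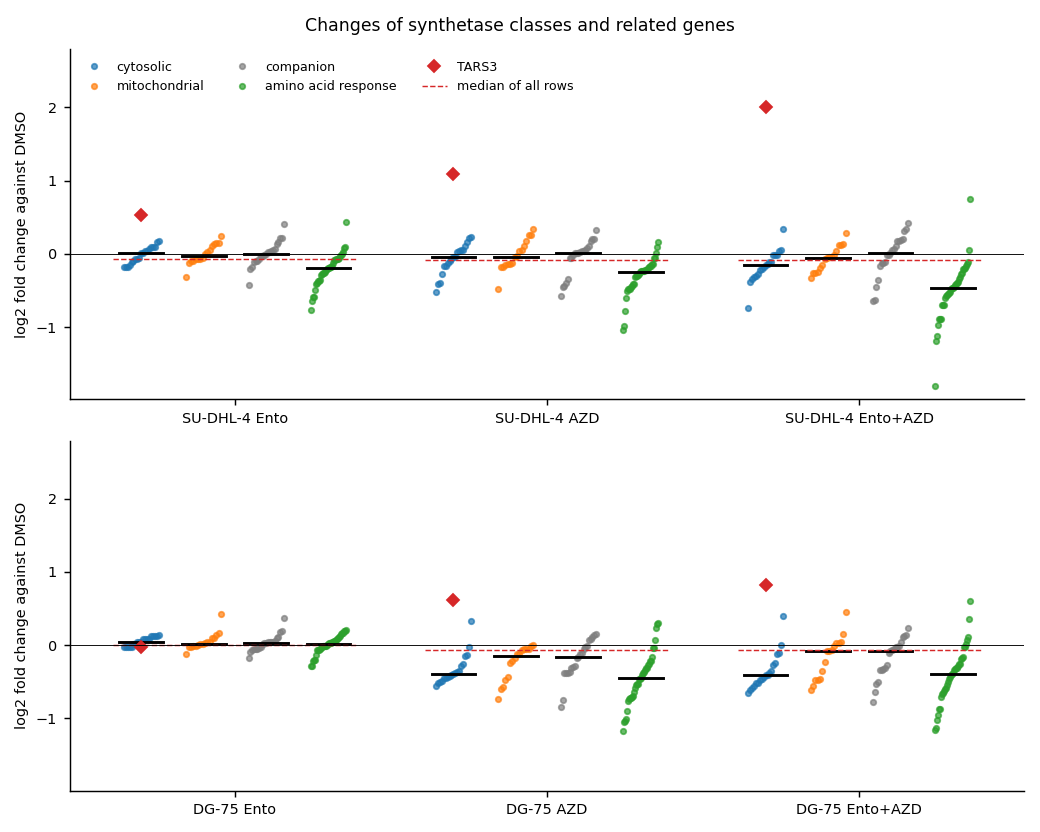
Log2 differences from DMSO of the cytosolic and mitochondrial synthetase genes, companion genes and amino acid response genes (dots, with black bars for list medians) and of TARS3 (diamonds), by exposure, with SU-DHL-4 above and DG-75 below and the dashed line at the median of all rows. In DG-75 the cytosolic median lies at -0.40 with AZD and -0.41 with Ento+AZD, below the mitochondrial medians of -0.15 and -0.08, and TARS3 reaches 2.0 in SU-DHL-4 with Ento+AZD.

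Ento as a single agent changed no member by limma. In SU-DHL-4 1 member, TARS3, had an unadjusted p under 0.05 (0.0351), against 8.59% of all rows, and 0.0508% of all rows were called. In DG-75 0 of 36 had one, against 2.81% of all rows, and 0.00391% of all rows were called. Over both lines 0 of 36 had one, against 6.36%, and 0.00782% of all rows were called. AARS2 in DG-75 (0.43, 95% interval -0.15 to 1.01) and VARS2 in SU-DHL-4 (-0.31, 95% interval -0.77 to 0.15) had the smallest p in their line, in SU-DHL-4 next to TARS3. Over both lines QARS1 was at 0.15 (adjusted p = 0.834) and AARS1, CARS1 and the rest of the members lay between -0.17 and 0.25.

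The difference between the lines in the response to AZD was tested directly. No member passed the adjusted threshold in limma, and 6 had an unadjusted p under 0.05, all with the higher value in SU-DHL-4, against 2.81% of all rows. They included LARS2 (1.00, 95% interval 0.32 to 1.67, adjusted p = 0.58), FARSB (0.53, adjusted p = 0.654), YARS1 (0.49, adjusted p = 0.672) and NARS2 (0.68, adjusted p = 0.729). The median difference between the lines was 0.30 over the cytosolic and 0.25 over the mitochondrial genes, beside -0.01 over all rows. With Ento+AZD only TARS3 and FARSB (0.45, adjusted p = 0.692) had an unadjusted p under 0.05, against 2.66% of all rows higher. For Ento 0 members did, against 4.43% of all rows.

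Medians by complex membership and by promoter element are given without a test. With Ento+AZD over both lines the 7 genes of the multi-synthetase complex had a median log2 difference of -0.23, with 6 of 7 below 0, and the 12 other cytosolic genes -0.35, with 12 of 12 below 0. The 7 genes with the element had a median of -0.31, with values from -0.60 to -0.18, and the 9 without it had -0.21, with values from -0.44 to 0.37. In DG-75 with AZD these medians were -0.42 and -0.28. The ranges overlapped throughout, and QARS1 was among the genes without the element.

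Genes that work next to the synthetases were followed as a list of 22, of which 21 had a row. They encode complex scaffolds, factors of mitochondrial tRNA, proofreading enzymes, the selenocysteine machinery, elongation factors that take charged tRNA, the tRNA exporter XPOT and the sensors of uncharged tRNA. None was called beyond 2-fold with any exposure within a line or over both lines. Over both lines 2 of 21 fell with Ento+AZD, against 7.03% of all rows and 12.3% of those at or above the median row mean, a share near the background. They were XPOT (-0.64, adjusted p = 0.00347) and SEPSECS (-0.56, adjusted p = 0.00967), and the list median was 0.01 beside -0.07 over all rows. EEF1E1, a scaffold protein of the multi-synthetase complex, fell in DG-75 with Ento+AZD by 0.77 (adjusted p = 0.0226). Between the untreated lines DTD1, a proofreading enzyme, was higher in SU-DHL-4 by 3.01 (adjusted p = 3.66e-08). EIF2AK4, the kinase that senses uncharged tRNA, was higher there by 1.37 (adjusted p = 2.84e-07). They were the 2 of 21 that were higher, against 7.78% of all rows, a share near the background. Both exceeded 2-fold, against 3.1% of all rows called higher. EEF1E1 (-0.96, adjusted p = 0.000269), GCN1 (-0.66, adjusted p = 0.00727), AIMP2 (-0.63, adjusted p = 0.01) and EEF1B2 (-0.39, adjusted p = 0.0229) were the 4 of 21 that were lower, against 9.84%.

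Genes of the amino acid response were followed as a list of 36. Over both lines 18 of 36 listed genes fell with Ento+AZD, against 7.03% of all rows and 12.3% of those at or above the median row mean. With AZD 13 fell, against 4.29% of all rows, and TRIB3, PSAT1, CTH and GPT2 were among those lower in both. The other counts given for this list have only the share of all rows beside them. ATF4 itself fell by 0.35 with Ento+AZD (adjusted p = 0.00772) and by 0.30 with AZD (adjusted p = 0.0347). ASNS, asparagine synthetase, was at -0.46 (adjusted p = 0.0652), and DDIT3, a stress-induced C/EBP protein, at -0.18 (adjusted p = 0.546). The list median with Ento+AZD was -0.47 for SU-DHL-4 and -0.39 for DG-75, beside -0.08 and -0.07 over all rows, and it stayed negative under both rescalings, between -0.35 and -0.29.

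Within SU-DHL-4, 7 of 36 response genes fell with Ento+AZD, against 2.06% of all rows, while AARS1 was the single synthetase gene to do so. SLC7A11, the cystine transporter, CBS and DDIT4 were called beyond 2-fold there. Within DG-75 8 fell, against 1.87% of all rows, with SLC7A11 (-1.16, adjusted p = 0.0187), VLDLR (-1.12, adjusted p = 0.0214) and CTH (-1.02, adjusted p = 0.0341) beyond 2-fold. Between the untreated lines 23 of 36 were lower in SU-DHL-4, against 9.84% of all rows, with a median of -0.78, which goes in the same direction as the cytosolic synthetases. PHGDH, the entry enzyme of serine synthesis, had a log2 difference of -5.43 (adjusted p = 3.26e-15), ATF5 of -2.88 (adjusted p = 3.53e-11) and ATF4 of -0.79 (adjusted p = 0.00237).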

How the data were processed

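RNA of 24 cultures was hybridised to human Clariom D arrays, 3 per line and exposure. The authors deposited log2 values normalized with RMA, with 25575 rows and 25161 gene symbols; the genome build and tool versions are not given in the sources used here. These values were used without further scaling. Each line was fitted with limma 3.58.1 in R 4.3.3, with 4 groups and a term for the replicate number. Comparisons over both lines and of their responses used all 24 arrays, with the replicate within line, and the untreated lines were compared from 8 group means without it. Adjusted p-values are those of Benjamini-Hochberg across the whole table. A call needed an adjusted p under 0.05 and more than a 2-fold change, the thresholds of the study. The number of arrays limits the precision.

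All members may be named, TARS3 in every comparison and, for each comparison, up to 6 further members of smallest p; of the companion and amino acid response lists, up to 4 called genes per direction, and SLC7A11, ASNS, ATF4 and DDIT3. XPOT, SEPSECS, EEF1E1, GCN1, AIMP2, EEF1B2, TRIB3, PSAT1 and GPT2 fell outside this rule and were named after their values were seen. The members and lists were chosen with earlier results of these data known. The limma step was tested on simulated data. Alternatives were no replicate term, 1 fit of all arrays, quantile normalization, subtraction of array medians, a filter on low rows, a trended robust prior, no fold minimum, each array left out and only the 6 DMSO arrays for the untreated lines.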

Additional observations from a re-analysis of the deposited data

How the results depend on the processing

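Among alternatives other than leaving out an array, 134 counts of calls stayed within 1.5 times their value and 12 did not, and 749 values of single genes kept their direction and their side of the joint threshold (adjusted p under 0.05 and over 2-fold), while 5 no longer passed it and 33 did so anew, 31 of them through dropping the fold minimum. By adjusted p alone, the 39 member values that passed missed it in 32 cases over all these alternatives. Calls in SU-DHL-4 with AZD went from 0 to 1 without rows under the median and with a trended robust prior. Without the fold minimum the calls were 2 for SU-DHL-4 Ento+AZD, 1 for DG-75 Ento+AZD, 3 for DG-75 Ento+AZD against Ento, 4 for AZD and 9 for Ento+AZD over both lines, and 19 for the untreated lines, by construction of the setting. Quantile normalization gave 3 calls for the untreated lines. For Ento+AZD against Ento in SU-DHL-4 the single call, TARS3, became 0 without the replicate block, after quantile normalization and after subtraction of array medians. With means in place of medians the gap between cytosolic and mitochondrial genes in DG-75 was -0.085 with AZD and -0.19 with Ento+AZD. The cause was not tested.

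With 1 array left out, calls ranged from 0 to 0 for SU-DHL-4 Ento+AZD against Ento, from 0 to 1 for AZD over both lines (1 without DG-75 DMSO replicate 3) and from 4 to 9 for the untreated lines (9 without SU-DHL-4 DMSO replicate 3). The class gap ranged from -0.12 to 0.072 for SU-DHL-4 Ento, -0.20 to 0.037 for SU-DHL-4 Ento+AZD (positive without DMSO replicate 2), -0.26 to -0.15 for DG-75 AZD (the latter without DMSO replicate 2) and -0.33 to -0.22 for DG-75 Ento+AZD. VARS2 in SU-DHL-4 with Ento ranged from -0.56 to 0.013, with its sign turned without Ento replicate 2. TARS3 in DG-75 ranged from -0.30 to 0.32 with Ento (positive without DMSO or Ento replicate 3), from -0.036 to 0.57 for Ento+AZD against AZD (negative without Ento+AZD replicate 1) and from -0.12 to 0.60 for the departure from additivity (negative without DMSO replicate 3, Ento replicate 3 or Ento+AZD replicate 1).

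In SU-DHL-4, same-numbered arrays of different groups correlated in their deviations with a median of 0.15 (-0.11 to 0.39, 12 of 18 pairs over 0.1), and arrays of different number with a median of -0.07 (1 of 36 pairs over 0.1). The numbers thus went with shared deviations there, though not in every pair. In DG-75 the medians were 0.04 (7 of 18 pairs) and -0.01 (11 of 36 pairs). No source used here says what a number marks. Without the replicate block the call count of SU-DHL-4 Ento+AZD against Ento was 0.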
